A study of Mus musculus with 4 samples.

Results

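The genes described here are the 10 core genes of the Notch pathway: the ligands Jag1, Jag2, Dll1, Dll3 and Dll4, the receptors Notch1, Notch2, Notch3 and Notch4, and Rbpj. They were listed by name, with earlier results of these data known, and are 10 of 21887 nuclear protein-coding genes in the RefSeq annotation. Their shares beside those of all genes are therefore description only. The study mapped where HA-tagged Fbxl10, the demethylase also known as Kdm2b, binds chromatin in mouse embryonic fibroblasts (MEFs). All libraries came from MEFs that carry the HA-tagged Fbxl10 gain-of-function model. The induced cells had doxycycline at 1 µg/ml in the medium for 48 hours and the non-induced cells carried the same construct without this induction. The sources used here do not give the age of the embryos, their strain or the promoter of the construct. Chromatin was precipitated with an HA antibody and sequenced (ChIP-seq), and each ChIP group gave 1 peak list. The 4 labelled libraries form 4 groups of 1, and the 2 input libraries were not used here. Each condition has only 1 list and no replicate, so counts and scores are described and no p-value is given. Read totals are unknown, and peaks say nothing about RNA, so neither the expression of these genes nor the identity of the cells could be checked against markers.

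Notch signalling passes between cells that touch. A ligand of the Jagged or Delta-like family on a cell binds a Notch receptor on its neighbour, proteases cut the receptor, and its inner part moves to the nucleus. There it joins Rbpj, the DNA-binding protein of the pathway, and turns on target genes such as those of the Hes and Hey families. Without the receptor fragment Rbpj can hold corepressors at the same genes. In the embryo the pathway is known for setting boundaries between somites, for blood vessel growth and for keeping progenitor cells undifferentiated. Fbxl10 carries a CXXC zinc finger, a fold known to bind CG dinucleotides that are not methylated, which are dense at many gene starts.

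Under induction 5 of the 10 genes had a peak inside the gene or within 5 kb of it: Jag1, Dll4, Notch1, Notch2 and Rbpj. Over all protein-coding genes this share was 21.4%, and over the 13235 genes between 8.23 and 137 kb long, the range of the 10 genes, it was 22.9%. The 5 genes held 7 induced peaks, and 5 of these 7 had their midpoint within 1 kb of a start listed by RefSeq. Over the whole induced list 53.5% of peaks lay within 1 kb of an end of any annotated gene. That is a different measure, but many peaks of the list lie near gene ends. Without induction 3 of the 10 genes had a peak by the same rule, Jag1, Dll1 and Notch2, against 12.7% of all genes. No peak of the members in one list overlapped a peak in the other. The share of all peaks that overlap the other list is not given here, so this cannot be read as particular to these genes. Jag2, Dll3, Notch3 and Notch4 had no peak inside or within 5 kb in either list.

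**Figure D1:**
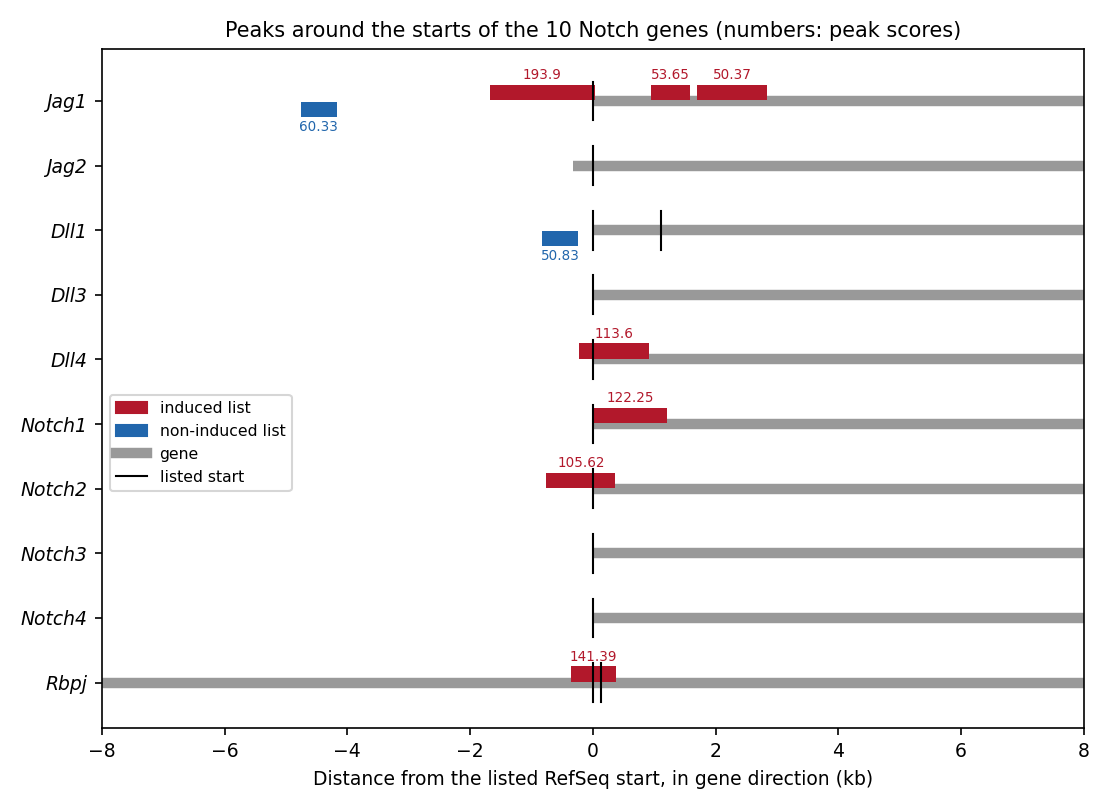
Peaks of both lists around the starts of the 10 genes. The horizontal axis is the distance from the listed RefSeq start in kb, with the gene running to the right; grey bars are genes, black ticks listed starts, red bars induced peaks and blue bars non-induced peaks, with the authors' score beside each. The 5 induced peaks with the highest scores, from 105.62 to 193.9, lie at the listed starts of Jag1, Dll4, Notch1, Notch2 and Rbpj.

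Printed here are the 250 bases before the listed start, for the 5 genes with an induced peak at the start, for Dll1 with its non-induced peak, and for Notch4 as a gene without a peak. They show how the starts differ in CG content. Notch4 does not stand for the other genes without a peak. In windows of 300 bases at the start it held 5 CG, Dll3 11, Notch3 25 and Jag2 63. The bases come from RefSeq, build GRCm38.p6 (the same coordinates as mm10), and run 5′ to 3′ on the strand of the gene. Capitals mark each CG, which reads the same on both strands.
Jag1 (chr2:137116521-137116770, minus strand): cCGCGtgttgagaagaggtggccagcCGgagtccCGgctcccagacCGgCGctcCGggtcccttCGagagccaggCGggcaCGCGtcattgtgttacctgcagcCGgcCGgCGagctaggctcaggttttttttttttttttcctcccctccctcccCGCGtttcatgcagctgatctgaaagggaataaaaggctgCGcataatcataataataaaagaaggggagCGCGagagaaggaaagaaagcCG
Dll4 (chr2:119325534-119325783, plus strand): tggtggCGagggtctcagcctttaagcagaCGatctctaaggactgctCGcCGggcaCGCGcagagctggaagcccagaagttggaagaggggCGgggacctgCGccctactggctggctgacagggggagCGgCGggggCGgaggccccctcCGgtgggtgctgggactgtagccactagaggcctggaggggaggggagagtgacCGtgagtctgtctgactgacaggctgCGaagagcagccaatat
Notch1 (chr2:26503823-26504072, minus strand): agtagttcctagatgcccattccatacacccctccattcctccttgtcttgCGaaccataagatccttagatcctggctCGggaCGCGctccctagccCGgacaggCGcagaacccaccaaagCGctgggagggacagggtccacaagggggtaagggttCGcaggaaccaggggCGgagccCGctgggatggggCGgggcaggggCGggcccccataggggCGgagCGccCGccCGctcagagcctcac
Notch2 (chr3:98013288-98013537, plus strand): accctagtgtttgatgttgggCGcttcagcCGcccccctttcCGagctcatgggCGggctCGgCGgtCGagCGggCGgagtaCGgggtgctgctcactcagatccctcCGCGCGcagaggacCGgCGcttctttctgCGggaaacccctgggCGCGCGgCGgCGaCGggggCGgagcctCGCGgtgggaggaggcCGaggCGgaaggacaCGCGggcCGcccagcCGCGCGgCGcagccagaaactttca
Rbpj (chr5:53590096-53590345, plus strand): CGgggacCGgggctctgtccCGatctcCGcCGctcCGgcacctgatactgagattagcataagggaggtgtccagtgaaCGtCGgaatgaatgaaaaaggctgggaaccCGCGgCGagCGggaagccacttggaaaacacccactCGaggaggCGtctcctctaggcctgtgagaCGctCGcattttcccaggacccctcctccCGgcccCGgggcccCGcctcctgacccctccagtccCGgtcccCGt
Dll1 (chr17:15376933-15377182, minus strand): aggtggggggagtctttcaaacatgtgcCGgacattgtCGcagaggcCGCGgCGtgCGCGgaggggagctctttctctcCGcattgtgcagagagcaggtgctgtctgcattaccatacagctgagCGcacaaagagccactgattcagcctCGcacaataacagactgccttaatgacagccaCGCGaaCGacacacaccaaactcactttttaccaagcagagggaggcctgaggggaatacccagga
Notch4 (chr17:34564045-34564294, plus strand): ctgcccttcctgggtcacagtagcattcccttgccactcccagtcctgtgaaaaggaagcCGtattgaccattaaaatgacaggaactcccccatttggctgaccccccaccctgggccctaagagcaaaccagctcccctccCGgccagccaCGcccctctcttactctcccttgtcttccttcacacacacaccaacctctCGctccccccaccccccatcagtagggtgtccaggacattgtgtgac
Of these stretches that of Notch2 held the most CG, 34, and that of Notch4 the fewest, 4. Jag1 had 20, Dll4 14, Notch1 16, Rbpj 21 and Dll1 13. The induced peaks covered all 250 printed bases of Jag1, Notch2 and Rbpj and 230 of those of Dll4. The induced peak of Notch1 covered none of them, since it lay wholly after the start. The non-induced peak of Dll1 covered 8.

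Among the ligands, Jag1 had the highest peak of the 10 genes. Jag1, whose product drives Notch signalling in vessels, heart and inner ear, lies on chromosome 2 from 137081451 to 137116520 on the minus strand (gene 16449). Its main induced peak ran from 137116477 to 137118201 (mm10) with a score of 193.9. A score is the value that the authors' peak caller gave to a peak, and both lists begin at 50. The peak ranked 172 of 5497, so 3.13% of the induced list scored as high or higher. It was also 1725 bp wide, and 3.26% of induced peaks were as wide. It covered the listed start and reached outward, with its midpoint 819 bp before the start.

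Further induced peaks lay inside Jag1, at midpoints 1267 and 2267 bp after the start. Their scores were 53.7 (rank 4557) and 50.4 (rank 5397), near the lowest score of the list. Of all genes 0.772% had 3 or more induced peaks inside or within 5 kb. The non-induced list held a Jag1 peak elsewhere, from 137120690 to 137121279, with its midpoint 4464 bp before the start. Its score was 60.3, at rank 5202 of 10532, close to the median of its list (60.2). Jag1 therefore had peaks in both lists, at separate sites.

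By likeness of pattern, 8 other protein-coding genes had 3 induced peaks and 1 non-induced peak inside or within 5 kb, with an induced peak within 1 kb of an end of the gene. The nearest in highest induced score was Zfp503, a zinc finger gene of the developing brain and limb (226, against 194 at Jag1). Next came Fndc3a (119), the homeobox gene Uncx (116) and Igdcc3 (112). Likeness here means only these counts and the score of the highest peak, in 1 list per condition.

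Dll4, the Delta-like ligand of sprouting blood vessels and arteries, had 1 induced peak and no non-induced one. The gene lies on chromosome 2 from 119325784 to 119335666 on the plus strand (gene 54485). The peak ran from 119325554 to 119326699 and scored 113.6, at rank 829 (15.1% of the list as high or higher). It covered the start, with its midpoint 342 bp inside the gene. A long noncoding gene, Gm14207, has an end within 1 kb of the same peak, so the list cannot assign the peak to either gene. The nearest non-induced peak was 170 kb from Dll4.

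Dll1, the Delta-like ligand that acts in somite and neural progenitor patterning, was the only member whose sole peak came from the non-induced list. It lies on chromosome 17 from 15367354 to 15376932 on the minus strand (gene 13388). The peak, from 15377175 to 15377753, stood 243 bp outside the gene, with its midpoint 532 bp before the outer start. Its score was 50.8 at rank 9692 of 10532, so 92.0% of the non-induced list scored as high or higher. The nearest induced peak was 325 kb away.

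Jag2 and Dll3 had no peak by the rule. Jag2, the Jagged ligand of limb and palate development (chromosome 12, 112907803 to 112929812, gene 16450), stood farther from any induced peak than the other members except Dll1. Its nearest induced peak was 210 kb away and its nearest non-induced peak 721 kb away. Dll3, a divergent ligand of the segmenting embryo that is known to dampen Notch signalling (chromosome 7, 28293555 to 28301785, gene 13389), had an induced peak 10.0 kb outside the gene. That peak scored 66.9. It lay within 1 kb of an end of Timm50, a gene of mitochondrial protein import, and of the noncoding gene Gm51445.

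Among the receptors, Notch1 and Notch2 had induced peaks at the start, and Notch3 and Notch4 had none. Notch1, the receptor of most widespread use in the embryo, lies on chromosome 2 from 26457902 to 26503822 on the minus strand (gene 18128). Its peak ran from 26502613 to 26503795 with a score of 122.25, at rank 671 (12.2% of the list). The midpoint was 618 bp inside the gene and the peak did not cover the start itself. A noncoding gene, Gm35978, has an end within 1 kb of the same peak, so here too the list cannot assign it to either gene. The nearest non-induced peak to Notch1 was 370 kb away.

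Notch2, a receptor of kidney, liver and marginal zone B cell development, is the longest of the 10 genes at 136830 bp (chromosome 3, 98013538 to 98150367, plus strand, gene 18129). Its induced peak ran from 98012782 to 98013908, scored 105.62 at rank 997 (18.2% of the list) and covered the start, with its midpoint 193 bp outside. A non-induced peak lay inside the gene, from 98074414 to 98074954, with its midpoint 61.1 kb after the start. That peak scored 57.1 at rank 6597 of 10532 and was 541 bp wide. Whether it fell in an exon or an intron could not be read from the annotation used, which gives gene ends and starts only. As at Jag1, the lists marked Notch2 at different sites, here in the gene body without induction and at the start with it. Over the whole lists 6.32% of non-induced peaks lay within 1 kb of an end of any annotated gene, against 53.5% of induced ones. Separate sites are therefore not read as a shift with induction, which was not tested. In the alternative with lists of equal length the non-induced peak of Notch2 dropped out.

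Notch3, the receptor of vascular smooth muscle (chromosome 17, 32120820 to 32166896, gene 18131), had its nearest induced peak 20.2 kb outside the gene with a score of 52.6. Its nearest non-induced peak was 1041 kb away. Notch4, an endothelial receptor (chromosome 17, 34564286 to 34588543, gene 18132), had its nearest induced peak 15.5 kb outside, with a score of 88.9. That peak lay within 1 kb of ends of Rnf5 and Agpat1. The nearest non-induced peak to Notch4 was 30.9 kb away. The receptors were thus split evenly in the induced list, and the only non-induced peak among them was the inner one of Notch2.

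Rbpj, the DNA-binding protein through which all 4 receptors act, had the peak with the next highest score after Jag1, and a count at the ends of genes misses it. The gene as annotated runs on chromosome 5 from 53555779 to 53657445 on the plus strand (gene 19664). The peak, from 53589987 to 53590727, has its midpoint 34.6 kb inside that outer start. RefSeq also lists starts at 53590346 and 53590486, and the peak covered both, with its midpoint 11 bp from the nearer. It scored 141.39 at rank 454, so 8.26% of the induced list was as high or higher, and at 741 bp it was narrower than the peaks of the other marked starts. The non-induced list had no peak within 191 kb of Rbpj.

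**Figure D2:**
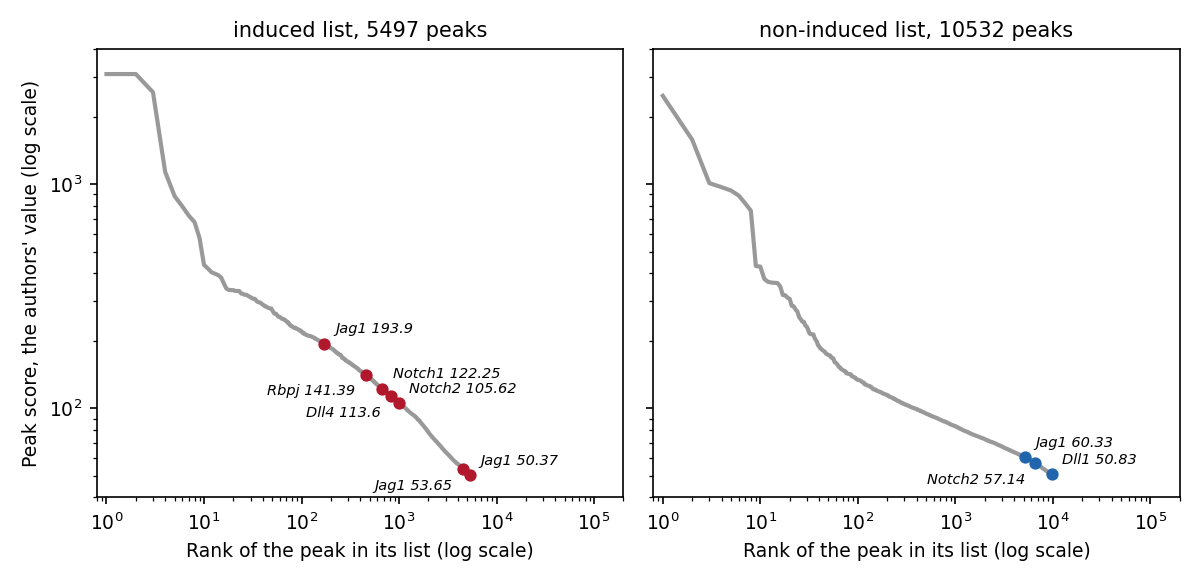
Scores of the members' peaks inside or within 5 kb, on the ranked scores of each whole list. The horizontal axis is the rank in the list and the vertical axis the authors' score, both on log scales; the grey line is every peak of the list and the points are peaks of the named genes. The 5 induced peaks at starts lie between ranks 172 and 997, and the 3 non-induced peaks between ranks 5202 and 9692.

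At the ends of genes the count was 4 of 10 within 1 kb in the induced list (Jag1, Dll4, Notch1 and Notch2), where 13.4% of all genes had a peak. All of these peaks lay at the start and none at the far end, and no other protein-coding gene had an end within 1 kb of them. It stayed 4 of 10 within 5 kb, where the share of all genes was 18.4%. In the non-induced list 1 of 10 (Dll1) had a peak within 1 kb, where 1.59% of all genes did, and 2 of 10 (Dll1 and Jag1) within 5 kb, against 5.36%. Counted from starts listed by RefSeq, an alternative chosen after seeing the data, 5 of 10 had an induced peak within 1 kb, with Rbpj added, against 14% of the 17492 genes with a listed start. By the same count 1 of 10 had a non-induced peak, against 0.972%. A count of 1 among 10 rests on the single low-scoring peak of Dll1.

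The marked members also stood in the upper part of the marked genes by score. Of the 2930 genes with an induced peak within 1 kb of an end, with a median highest score of 80.2, Jag1 ranked 135, Notch1 558, Dll4 689 and Notch2 813. In the non-induced list Dll1 ranked 326 of 348 genes, whose median was 62.9. Counted per length, the 440 kb of the 10 genes together touched 7 induced peaks, 1.59 per 100 kb, against 0.397 over all genes. They touched 1 non-induced peak, 0.228 per 100 kb, against 0.367. The values per length rest on few peaks, and 3 of the 7 are from Jag1.

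The CG content of the listed starts was compared with the peaks. RefSeq gives a window of 300 bases, 250 before and 50 after the start, for all 10 genes and for 21263 starts of protein-coding genes, of which 95.4% hold at least 1 CG. Windows that overlapped an induced peak had a median of 24 CG and the others 11. The share overlapped by an induced peak was 0.365% with at most 4 CG, 11.9% with 10 to 19, 18.8% with 20 to 29 and 18.2% with 30 to 39. It was 12.2% with 40 to 49 and 6.84% (16 of 234) with 50 or more. Non-induced peaks overlapped 49 windows, 0.230%, with a median of 15 CG.

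The windows of the marked genes held 17 (Dll4), 22 (Jag1), 23 (Notch1), 41 (Notch2), and 26 and 28 CG (Rbpj, with 2 starts). Of the unmarked genes, Notch4 had 5 and Dll3 11. Yet Notch3 had 25 CG without a peak, and the windows of Dll1 had 15 and 24. Jag2 had 63, which only 0.0423% of all windows reach. None of the 9 windows with at least that many, that of Jag2 among them, overlapped an induced peak. Of windows with 50 or more CG 6.84% did, so none of 9 says little about such windows. The ranges of the marked and the unmarked genes overlap, so the number of CG in this window did not separate them.

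**Figure D3:**
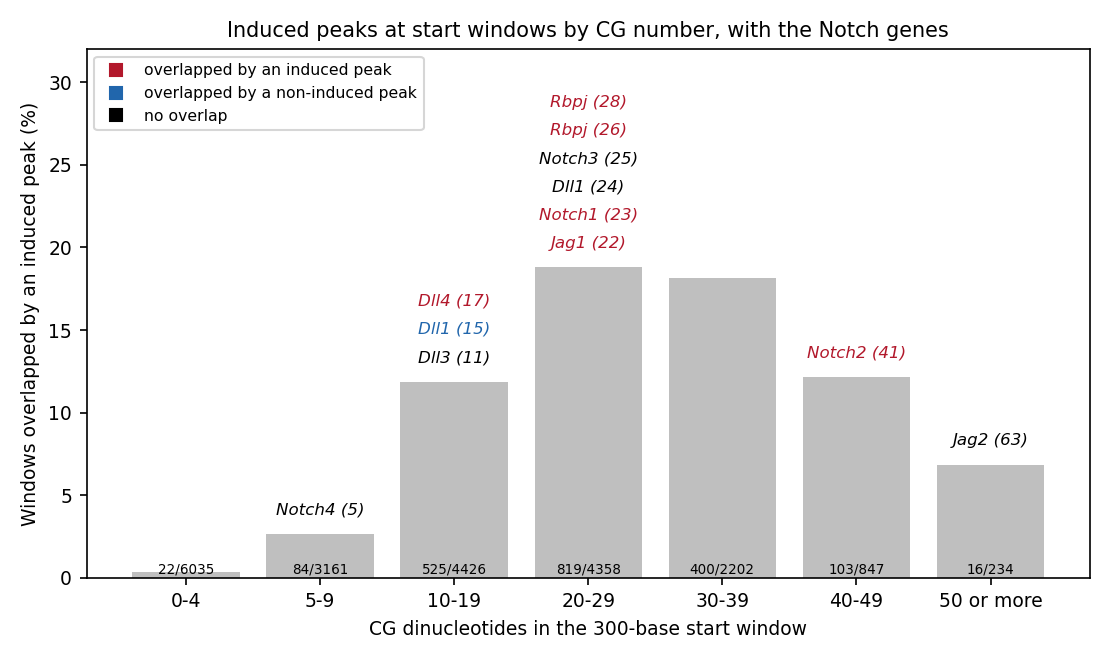
Share of start windows overlapped by an induced peak, by the number of CG dinucleotides in the 300-base window. The horizontal axis is the number of CG, the vertical axis the percent of windows, and the fraction in each bar gives the overlapped and all windows; names of the members stand above their class with their own number of CG, red where an induced peak overlaps, blue where a non-induced peak does and black where none does. Notch3 with 25 CG and Jag2 with 63 have no peak, while Jag1 with 22 has one.

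Among 59 other genes of the pathway, 16 (27.1%) had an induced peak within 1 kb of an end and 23 (38.98%) inside or within 5 kb, against 13.4% and 21.4% of all genes. In the non-induced list 4 (6.78%) and 8 (13.6%) did, against 1.59% and 12.7%. The genes fall into 8 roles, and the counts differed between them. These are small lists described by their counts, and they were drawn up with earlier results of these data known. Their shares beside those of all genes are therefore description only. No difference from all genes or between roles was tested. For these 59 genes, ends of other genes near a peak were not looked up, so a peak may also lie at a neighbour.

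Corepressors, which Rbpj can hold at its targets, were marked at an end in 6 of 12 cases in the induced list, against 13.4% of all genes. None was marked in the non-induced list, where only 1.59% of all genes were, so none of 12 is what that list as a whole gives. The highest of these were the Groucho family gene Tle3 (115.0, with a further peak of 68.3), Cir1 (107.92), Ctbp2 (98.3) and Tle1 (75.3). The highest peak at any pathway gene was that of Spen, which encodes a large corepressor partner of Rbpj. It scored 279, at rank 49 of 5497, and was 1846 bp wide. It lay 1305 bp from the end of the gene, with its midpoint 2228 bp inside the start, so the count at 1 kb leaves it out, and it is named here after its value was seen.

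Target genes, which Rbpj and the receptor fragment turn on, were marked at an end in 4 of 7 cases under induction, against 13.4% of all genes. Hes7, a clock gene of the segmenting embryo, had 4 induced peaks inside or within 5 kb, with scores of 57.5, 58.8, 103.33 and 122.49. Nrarp, a feedback inhibitor of the pathway, had a peak of 80.0, Hey2 1 of 63.6 and Hey1 1 of 55.4. In the non-induced list Hes1 (69.8) and Hey1 (62.3) were marked at an end, against 1.59% of all genes. At Hey1 the peaks of both lists overlapped. Within 5 kb of an end, 6 of the 7 targets had an induced peak and 2 a non-induced one, against 18.4% and 5.36% of all genes. The added induced peaks were those of Hes5 (93.4, 1240 bp from an end) and Hes1 (76.4, 2708 bp from an end), named here after their values were seen. Hes1 thus had peaks in both lists, at separate sites. Heyl had no peak within 5 kb in either list.

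Genes that handle the ligands were marked at an end in 2 of 4 cases in the induced list, against 13.4% of all genes. In the non-induced list 1 of 4 was, against 1.59%. Mib2, a ubiquitin ligase that promotes uptake of ligands, had induced peaks of 121 and 93.2 at its far end, 16.2 and 15.1 kb from the start. Neurl1a, another such ligase, had overlapping peaks of both lists at its start (58.2 induced and 51.0 non-induced). Of 5 other ligands, Dlk1, Dlk2, Dner, Cntn1 and Ccn3, none had a peak within 5 kb in either list. Over all genes 18.4% had an induced and 5.36% a non-induced peak there, so none among 5 is not read as a result.

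The genes that process the receptors were marked in 1 of 10 cases, Ncstn, a subunit of the gamma-secretase that cuts Notch (56.5). Of 5 genes that add sugars to the receptor 1 was marked, Lfng, a Fringe enzyme that changes which ligand is bound, with peaks of 114.52 and 105.75. Of 7 coactivators 1 was marked under induction, the acetyltransferase gene Ep300 (69.3), and 1 without it, Maml2 of the Mastermind family (63.0). Of 9 genes of receptor turnover 1 was marked, Fbxw7, a ubiquitin ligase subunit that removes the active receptor fragment (94.6). In the induced list 13.4% of all genes were marked at an end, so 1 of 10, 1 of 5, 1 of 7 and 1 of 9 are near that share. In the non-induced list 1.59% were, and the 1 of 7 there rests on Maml2 alone. Of the 32 induced peaks inside or within 5 kb of the 59 genes 10 scored at least 100, and of the 12 non-induced peaks 0 did. Among the members these numbers were 5 of 7 and 0 of 3. Over the whole lists 21.2% of induced and 3.59% of non-induced peaks reached that score, so few or no such peaks among 3 or 12 non-induced ones is what their list as a whole gives. Whether 100 means the same in each list is unknown.

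**Figure D4:**
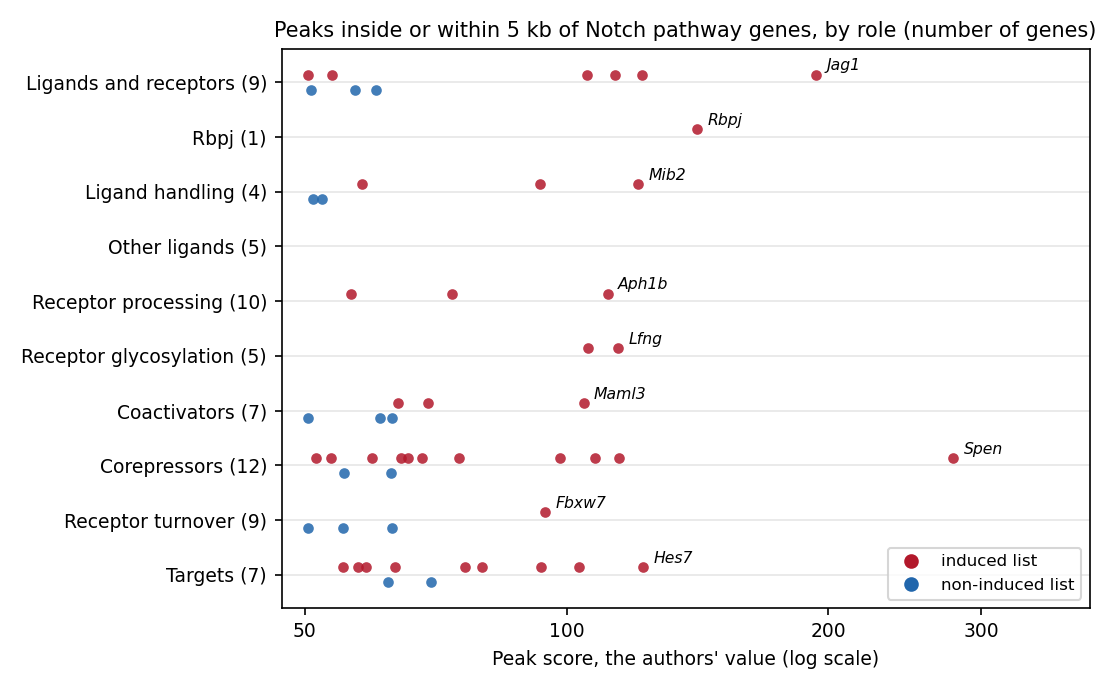
Scores of peaks inside or within 5 kb of Notch pathway genes, by role. The horizontal axis is the authors' score on a log scale, each point is 1 peak at 1 gene, red for the induced and blue for the non-induced list, the number of genes per role is in brackets, and the gene with the highest peak of each role is named. Spen (278.63) and Jag1 (193.9) have the highest induced peaks, and the highest non-induced peak is that of Hes1 (69.84).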

How the data were processed

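In all 2 peak lists were used, 1 from HA ChIP-seq of induced MEFs and 1 from non-induced MEFs. Each precipitation took 7 µg of chromatin and 5 µg of antibody, per the labels' protocols. The submitters' processing notes name Bowtie2 and mm10. MACS was the authors' peak caller, judging by the names of the peaks. Its version and threshold, the use of input and the link between the lists and the 3 independent samples of the protocol were not given in the sources used here. Each deposited list gives positions and a score per peak, whose formula is not given there either. Ranks were taken within a list, and 1 alternative kept scores of at least 100.

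Lists were assigned to groups by the marks w and wo, read against the library titles. The members, the lists of pathway genes and the rules were chosen with earlier results of these data known. All 10 members are named. Other pathway genes are named where a peak lay within 1 kb of an end, up to 4 per role by score, and genes outside this rule were added after their values were seen: Spen, Hes5 and the induced peak of Hes1, which lay farther away, and Heyl, Dlk1, Dlk2, Dner, Cntn1 and Ccn3, which had no peak. Gene ends came from a RefSeq table of GRCm38.p6 without exons or genome sequence. Strand and starts came from a RefSeq table of promoters, which lists 46 of the 59 other pathway genes. A peak counted when any base lay within the window, and an overlap of 1 bp made a peak shared. Set tests and random placements were not used.

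The counting was tested on simulated peaks placed at known distances. On the lists themselves it marked 2930 and 348 genes at 1 kb, and bedtools 2.31.1 differed for 0 genes in each. Alternatives were windows of 500 bp, 2 kb and 10 kb, scores of at least 100, lists of equal length, peak midpoints, gene starts only and other rules for shared peaks. Listed starts in place of gene ends were added, a choice made after seeing the data. Scripts ran under Python 3.11.15 with matplotlib 3.10.9, pandas 2.3.3 and numpy 2.4.6.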

Additional observations from a re-analysis of the deposited data

How the results depend on the processing

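Of 45 alternative values 34 stayed within 1.5 times the reported count and 11 did not. The induced counts of the members, 4 within 1 kb, 4 within 5 kb and 5 inside or within 5 kb, were 4 or 5 in every alternative run. With listed starts in place of gene ends, an alternative chosen after seeing the data, the count within 1 kb was 5. No member's peak overlapped a peak of the other list, a count without a share over the whole lists beside it. With a gap of up to 1 kb the count was still 0. It was 0 by construction with an overlap of 50% and at scores of at least 100, so these settings test nothing. The non-induced counts of the members depended on low-scoring peaks: 1, 2 and 3 became 0 in each case at scores of at least 100, and 0, 1 and 1 with lists of equal length, where Dll1 and Notch2 dropped out. Of the other pathway genes, 16 with an induced peak within 1 kb became 9 at 500 bp and 5 at scores of at least 100. Their 4 with a non-induced peak became 0 at scores of at least 100, 2 with the gene start only and 1 with listed starts. In these last settings Hes1 and Hey1 could not be counted, since no strand or start is listed for them. Maml2 has no peak within 1 kb of a listed start. No paired analysis was possible because each group has 1 library, and no replicate could be left out. Depth is unknown, so a gene without a peak may have signal below the authors' threshold.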

Other observations

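Farther from the members, most induced peaks stood at other genes and most non-induced peaks did not. Between 5 and 100 kb from the 10 genes there were 11 induced peaks, of which 9 lay within 1 kb of an end of another gene, and 7 non-induced peaks, of which 2 did. Over the whole lists 53.5% of induced and 6.32% of non-induced peaks lay within 1 kb of an end of any annotated gene. Counting also those inside, the members had a mean of 1.8 induced peaks, against 1.08 over all genes, and 1 non-induced peak, against 0.743. The medians were 1.5 against 1 and 0.5 against 0. The members are also longer, with a median of 29.7 kb against 17.2 kb, so the stretches counted are larger. Beside Dll4, the induced list had peaks at Vps18, a gene of vesicle fusion (163, rank 289), and at Chac1, which breaks down glutathione (102.46). Beside Dll3 it had 4, at Timm50, the elongation factor gene Supt5 (98.8), Plekhg2 (56.1) and Zfp36, which encodes an mRNA decay factor (97.4). The site at Plekhg2 was in both lists, with a non-induced score of 98.2 at rank 418 of 10532. That score was higher than that of any non-induced peak within 5 kb of a Notch ligand or receptor. A tRNA gene, n-TIaat16, also has an end within 1 kb of both peaks, so the lists cannot assign the site to either gene. Beside Notch1 the induced peaks were at both ends of Sec16a (83.7 and 81.6). The first also had an end of Inpp5e within 1 kb, and the second an end of the noncoding gene 0610009E02Rik. Neither can thus be assigned to Sec16a alone. Jag2 had 0 peaks of either list inside or within 100 kb, where the medians over all genes were 1 and 0. Dll1 also had no induced peak there. The share of all genes without any was not counted, so this cannot be read as particular to Jag2.

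A peak 11.9 kb outside the outer start of Rbpj (63.4, 490 bp wide) and the peak nearest to Notch3 (52.6) were the induced ones without an end of another gene within 1 kb.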
